A study of Mus musculus with 2 samples.

Results

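The NF-kB subunit genes and the genes of their feedback inhibitors were compared between splenic dendritic cells (DCs) kept in culture with IL-27 or with vehicle. The set was chosen by name, as 10 genes (Tnip3, Tnip1, Tnfaip3, Nfkbia, Nfkbib, Nfkbie, Nfkbiz, Bcl3, Nfkb1 and Rel), with each gene read by the probe set that the platform annotation gives to it alone. Of these, 9 had such a probe set, out of 19935 genes named in this way, and each of the 9 had exactly 1. Nfkb1 was not analysed here. The set was drawn up with the differences between these arrays known, so the levels and differences below are a description and carry no test.

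DCs capture antigen and show it to T cells, and here they were sorted by flow cytometry from the spleen of 8-week-old C57BL/6 mice of wild-type genotype. One sample was cultured with IL-27, a cytokine of the IL-12 family, and the other with vehicle, which the sample's title calls medium. Total RNA of each was read on 1 Affymetrix array. The treatment lasted for a time the labels give as "ON", and how many mice or cultures went into each sample is not stated. With 1 array per group, none of the differences could be set against a replicate spread or tested.

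NF-kB is a family of paired transcription factors (RelA, RelB, c-Rel and the products of Nfkb1 and Nfkb2) that drive inflammatory, survival and maturation genes in DCs after Toll-like receptor, TNF receptor or CD40 signals. In resting cells the pairs are held back by the inhibitors IkBa, IkBb and IkBe, which are destroyed once the IkB kinase complex marks them. Several of the genes switched on by NF-kB encode its own inhibitors, so the pathway shuts itself down. Among these are IkBa, which binds the factor again, and A20 with its partners, which take apart the ubiquitin chains that carry the signal upstream.

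The promoters are shown because most genes of this set are known targets of the factor they regulate. RefSeq promoter windows (build GRCm38.p6, 250 bases before to 50 after the annotated start) were at hand for 8 of the 10 genes, with 9 windows in all, since Tnfaip3 had 2. They were searched on both strands for the NF-kB consensus, a motif of 10 letters in which a run of G and a closing pair of C flank a purine, a pair of free letters and a pair of pyrimidines. It was present in 7 of the 9 windows, and in 7 of the 8 genes, whereas 8.46% of all 32851 windows and 9.55% of all 27025 genes held it. Nfkbib was the gene with no match, which says only that these letters are not in its window. The windows of Tnip3 and of Tnfaip3 follow in full, 5′ to 3′ on the strand of the gene, with every base of a match in capitals.
Tnip3 (chr6:65590148-65590447, plus strand): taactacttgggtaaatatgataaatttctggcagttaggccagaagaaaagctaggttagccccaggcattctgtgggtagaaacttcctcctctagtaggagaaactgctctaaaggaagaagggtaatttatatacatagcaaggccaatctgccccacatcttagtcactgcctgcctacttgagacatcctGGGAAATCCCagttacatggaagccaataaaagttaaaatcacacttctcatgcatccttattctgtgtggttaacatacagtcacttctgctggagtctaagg
Tnfaip3 (chr10:19015361-19015660, minus strand): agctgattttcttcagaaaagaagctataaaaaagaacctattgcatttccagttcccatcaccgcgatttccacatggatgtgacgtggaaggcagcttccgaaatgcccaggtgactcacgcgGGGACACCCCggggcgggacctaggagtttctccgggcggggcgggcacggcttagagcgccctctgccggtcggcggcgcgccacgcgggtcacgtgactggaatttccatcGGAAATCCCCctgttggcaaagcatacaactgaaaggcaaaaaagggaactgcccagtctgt
In Tnip3 the match began 54 bases before the start. Tnfaip3 had matches beginning 125 and 12 bases before its start, and its second window had none.

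The matches of the other genes are shown with 20 bases on each side, so that the motif can be compared between them, again with the matched bases in capitals.
Tnip1 (chr11:54962967-54963018, minus strand): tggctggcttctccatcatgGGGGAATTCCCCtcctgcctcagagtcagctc
Nfkbia (chr12:55492647-55492696, minus strand): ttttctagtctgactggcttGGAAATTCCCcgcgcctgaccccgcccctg
Nfkbie (chr17:45555574-45555623, plus strand): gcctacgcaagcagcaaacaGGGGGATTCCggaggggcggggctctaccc
Rel (chr11:23771031-23771081, minus strand): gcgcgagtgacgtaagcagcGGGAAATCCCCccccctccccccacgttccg
Bcl3 (chr7:19822724-19822773, minus strand): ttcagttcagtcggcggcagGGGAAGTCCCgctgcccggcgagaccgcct
They began 58 bases before the start in Tnip1, 29 in Nfkbia, 106 in Nfkbie and 92 in Rel, and at base 3 after it in Bcl3. The stretch in Tnip1 is longer than the motif because overlapping matches were joined, and the same holds for Rel. TTCNNNGAA, the form bound by STAT factors, which act downstream of the IL-27 receptor, was found in Tnip1 alone of the 8 genes. It began 199 bases before the start of Tnip1 and did not overlap the consensus match. Over all promoters it was in 8.30% of windows and in 9.55% of genes. A match is a description of letters and does not show that a factor binds there.

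**Figure D1:**
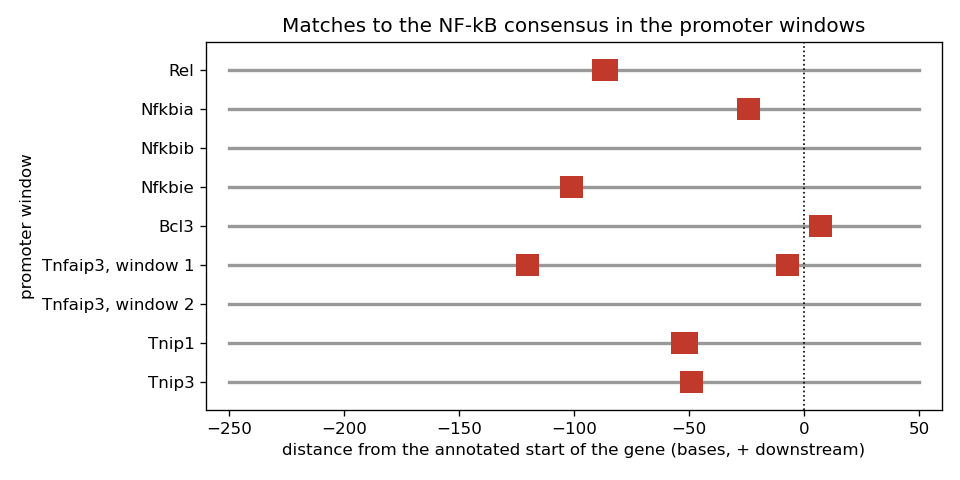
Position of each NF-kB consensus match (red) in the promoter windows (grey lines) of 8 genes of the set, against the distance from the annotated start in bases. Matches lie between 125 bases before the start (Tnfaip3) and base 3 after it (Bcl3), where each begins, and the windows of Nfkbib and the second window of Tnfaip3 hold none.

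Across all genes, those with and without the consensus in a promoter window had close medians. The 1116 genes with a match and a level over the minimum described below had a median log2 difference (IL-27 minus vehicle) of -0.35, and the 7819 without had -0.36. By the 2-fold rule, 1.52% of the genes with a match were higher and 13.4% lower, against 1.41% higher and 13.3% lower among those without.

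Tnip3 was far higher on the IL-27 array, Nfkbiz was lower, and the other 7 genes differed by less than 1.5-fold in either direction. All 9 were above background on both arrays. Background was judged from 1027 olfactory receptor genes, not expected in DCs, whose 95th percentile lay at an intensity of 129 on the IL-27 array and 77.3 on the vehicle array (the olfactory limit below). A gene was called higher or lower when it differed at least 2-fold and its brighter array reached the median of all probe set values, an intensity of 96.2. All 9 reached that level. One gene, Tnip3, was higher, against 1.52% of the 11140 genes over the same level, and 1 gene, Nfkbiz, was lower, against 13.2% of them. The median log2 difference of the 9 was 0.27, against 0.04 over all genes and -0.34 over the genes at that level.

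**Figure D2:**
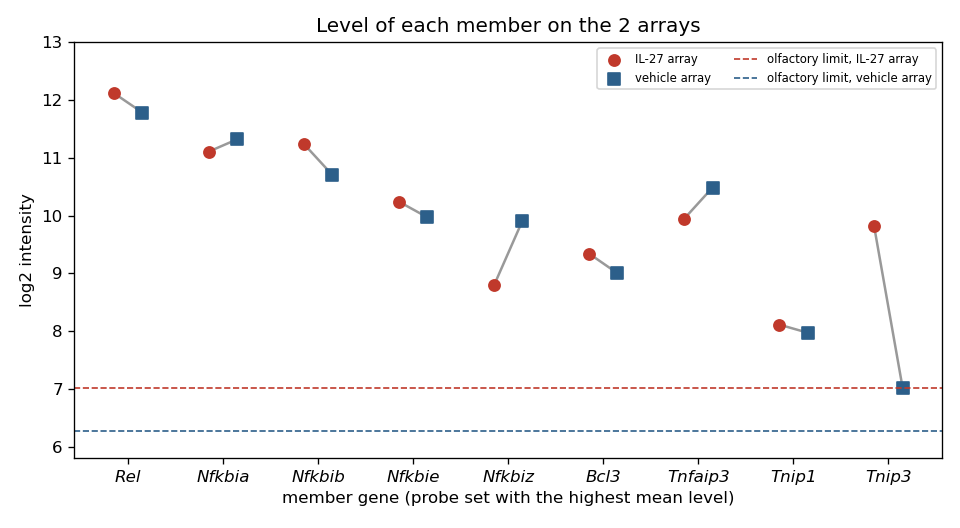
Log2 intensity of 9 genes of the set on the IL-27 array (red circles) and the vehicle array (blue squares), 1 array each, with the olfactory limits as dashed lines. Every point lies above the limit of its own array, and the widest gaps are those of Tnip3 (904 with IL-27, 130 with vehicle) and Nfkbiz (443 with IL-27, 963 with vehicle).

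Of the A20 group, Tnip3 alone passed the size rule. Tnip3 (probe set 10538791) encodes ABIN-3, an A20-binding protein. Its human form has been described to restrain NF-kB, and what the mouse protein does was not measured here. Tnip3 had an intensity of 904 with IL-27, against 130 with vehicle, a 6.96-fold higher level (log2 difference 2.80). Its vehicle value was 1.68 times the olfactory limit of that array, so Tnip3 was near background without the cytokine and well above it with IL-27. Only 2 of the 19935 genes had a larger positive difference, and none of the 1000 genes nearest to Tnip3 in mean level differed by as much in either direction.

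Tnfaip3 (probe set 10368144) encodes A20 itself, which removes and replaces ubiquitin chains on signalling proteins. It had 984 with IL-27, against 1434 with vehicle, which is 1.46-fold lower and short of the size rule, and 39.1% of its 1000 neighbours in mean level differed by as much in either direction. Tnip1 encodes ABIN-1, which binds A20 and ubiquitin, and it had 277 with IL-27, against 251 with vehicle, a log2 difference of 0.14.

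The inhibitors that hold the factor in the cytoplasm did not pass the size rule. Nfkbia, which encodes IkBa, the inhibitor that is resynthesised fastest, had 2209 with IL-27, against 2562 with vehicle (log2 difference -0.21). Nfkbib, for IkBb, had 2419 with IL-27, against 1667 with vehicle, 1.45-fold higher. Nfkbie, for IkBe, had 1210 with IL-27, against 1002 with vehicle, 1.21-fold higher. Nfkbib had the largest difference of the 3.

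Nfkbiz and Bcl3, whose products act in the nucleus, went apart. Nfkbiz (probe set 10439936) encodes IkBz, which enters the nucleus, pairs with the Nfkb1 product and is needed for a second wave of genes such as Il6 in macrophages. It had 443 with IL-27, against 963 with vehicle, which is 2.18-fold lower (log2 difference -1.12). Among its 1000 neighbours in mean level, 13.5% had a difference of that size in either direction and 12.2% were at least as low, so the difference is common at that level. With the level trend removed (next paragraph) it was -0.77 and short of the size rule, and after quantile normalization it was -0.86. Bcl3, whose product joins pairs of Nfkb1 or Nfkb2 products in the nucleus, had 649 with IL-27, against 512 with vehicle, 1.27-fold higher. Nfkbid, a related gene outside the set, had 1162 with IL-27, against 1208 with vehicle.

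The difference between the arrays depended on level, being below 0 for most genes of middle and high intensity. Each gene was therefore also set against the 1000 genes nearest to it in mean level, and 7 of the 9 lay above the median of their neighbours. Tnip3 exceeded it by 3.35 on the log2 scale, Nfkbib by 0.81, Bcl3 by 0.81, Tnip1 by 0.71, Rel and Nfkbie by 0.60 each and Nfkbia by 0.06. Tnfaip3 and Nfkbiz lay below it, with departures of -0.22 and -0.69. Only Tnip3 was outside the range that holds the neighbours from the 5th to the 95th percentile. For Nfkbib 7.50% of the neighbours had a difference at least as high, for Bcl3 8.40%, for Tnip1 9%, for Rel 11.6% and for Nfkbie 12.6%. With the trend removed by lowess the median of the 9 genes was 0.54 in place of 0.27, and 1 gene was higher (2.38% of genes over the level minimum) and 0 lower (6.70%).

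**Figure D3:**
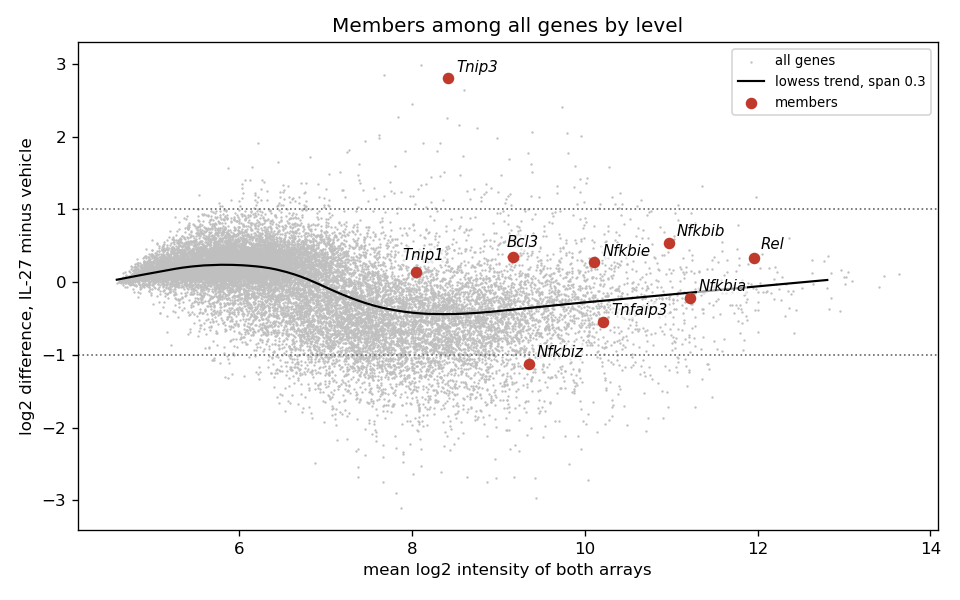
Log2 difference (IL-27 minus vehicle) against mean log2 intensity for 19935 genes (grey) and 9 genes of the set (red), with the lowess trend (span 0.3) as a black line and dotted lines at a 2-fold difference. Tnip3 stands at 2.80, Nfkbiz just past the lower line at -1.12, and 5 further genes of the set lie above the trend but short of the size rule.

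The subunits were close to level on both arrays. Rel encodes c-Rel, the subunit needed for Il12b in macrophages, and had 4456 with IL-27, against 3528 with vehicle, 1.26-fold higher. Outside the set, Rela had 999.9 with IL-27, against 837 with vehicle, 1.19-fold higher. Nfkb2 had 1043 with IL-27, against 823 with vehicle, 1.27-fold higher. Relb, its partner in the alternative pathway, had 544 with IL-27, against 583 with vehicle, a difference of -0.10 that turned positive once the level trend was taken out (0.28) or after quantile normalization (0.21). No subunit measured passed the size rule. Nkiras2, whose product binds IkB proteins, had 294 with IL-27, against 341 with vehicle, a difference of -0.21 that turned to 0.23 with the trend removed and to 0.13 after quantile normalization. The list of 8 other subunits and inhibitors held 0 higher and 0 lower genes, with a median of -0.08 that turned to 0.25 with the trend removed. Tnip2, the remaining A20-binding protein of the family, had 237 with IL-27, against 238 with vehicle.

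Of 14 genes of ubiquitin editing around A20, 1 was lower and 0 higher, with a median of -0.04 that turned to 0.27 with the trend removed and to 0.18 after quantile normalization. Itch, a ubiquitin ligase that works with A20, had 548 with IL-27, against 1304 with vehicle, 2.38-fold lower, and -0.94 with the trend removed, short of the size rule. Cyld, which cuts ubiquitin chains independently of A20, had 414 with IL-27, against 639 with vehicle, 1.54-fold lower. Rbck1 and Sharpin, both subunits of the enzyme that builds linear ubiquitin chains, differed by -0.72 and -0.63, short of the size rule.

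None of 25 kinase and adaptor genes that carry the signal to NF-kB passed the size rule as deposited (Card9 did after median centring, at -1.06), and their median was -0.20, or 0.14 with the trend removed. Card9, an adaptor of C-type lectin receptors, had 143 with IL-27, against 278 with vehicle, 1.95-fold lower, and Irak1, a kinase below Toll-like receptors, was 1.75-fold lower. Birc2, a ubiquitin ligase of TNF receptor complexes, differed by -0.75 by its brightest probe set, by -0.46 in the mean of its probe sets and by -0.17 by the dimmest. Traf1, an adaptor and a known NF-kB target, had 1849 with IL-27, against 1065 with vehicle, 1.74-fold higher, and reached a 2-fold difference with the trend removed (1.03). Map3k14, the kinase of the alternative pathway, had 764 with IL-27, against 472 with vehicle, and reached 1.07 with the trend removed. It was named after its values were seen.

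Of 20 ligands and receptors that feed the pathway, 17 were over the level minimum, of which 4 were lower and 0 higher, where 13.2% of all genes at that level were lower. Their median was -0.23, or -0.02 with the trend removed. Tlr7, an RNA sensor, had 163 with IL-27, against 703 with vehicle, 4.31-fold lower. Tlr4, the endotoxin receptor, was at least 1.69-fold lower, its IL-27 value of 60.2 being under the olfactory limit. That bound is short of 2-fold, and Tlr4 was not called when both arrays had to lie above the limit. Nod1, a sensor of bacterial cell wall fragments, was 3.31-fold lower, and the ligand gene Ltb was 2.25-fold lower and short of the size rule with the trend removed (-0.83). Tnf and Il1b, named after their values were seen, ran apart at 0.75 and -0.75. Tnf had 784 with IL-27, against 466 with vehicle, and passed the size rule with the trend removed (1.12). Il1b had 2044 with IL-27, against 3445 with vehicle.

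How many known NF-kB target genes were called in each direction depended on the scaling. Of 35 measured, 32 were over the level minimum, with 3 higher and 3 lower as deposited (1.52% and 13.2% of all genes at that level) and 7 higher and 2 lower with the trend removed (2.38% and 6.70%). The 35 had a median of 0.13, or 0.27 with the trend removed. As deposited, 20 of them (57.1%) had a difference above 0, where 53.4% of all genes did. That last share takes in genes under the level minimum. Over that minimum, the 32 target genes had a median of 0.12, against -0.34 for all genes. With the trend removed the higher genes also took in Tnf, Traf1, Cd80 (1.10) and Cflar (1.02), the last pair named after their values were seen. The higher genes as deposited were Gadd45b, a stress gene, with 2385 with IL-27, against 1088 with vehicle, Ccl22, a chemokine of mature DCs, with 791 with IL-27, against 371 with vehicle, and Ier3, named after its values were seen, with 326 with IL-27, against 161 with vehicle. Ccl22 fell just short of 2-fold after median centring (0.99). The lower genes as deposited were Ptgs2, the prostaglandin-forming enzyme, with 889 with IL-27, against 3257 with vehicle, Vcam1, an adhesion molecule, with 1640 with IL-27, against 4910 with vehicle, and Cxcl2, a neutrophil-attracting chemokine named after its values were seen, 2.08-fold lower and at -0.62 with the trend removed. Vcam1 is also on the list of macrophage markers below, and Relb, Nfkb2, Traf1, Tnf and others stand on more than 1 list.

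**Figure D4:**
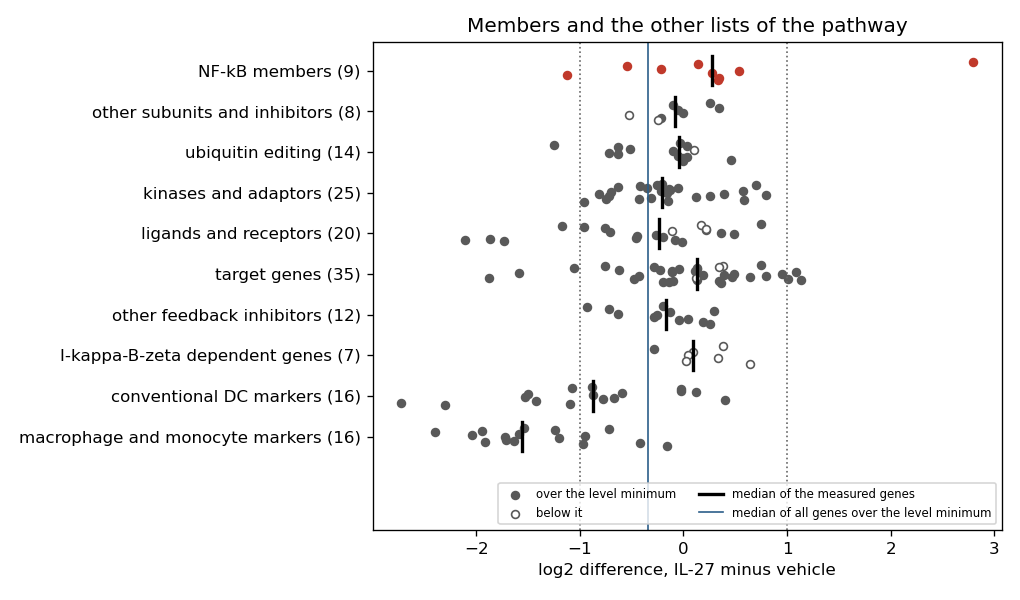
Log2 difference (IL-27 minus vehicle) of each measured gene, by list, with the number measured in brackets. Filled points are over the level minimum, black bars are list medians, the blue line is the median of all genes over the level minimum (-0.34) and dotted lines mark a 2-fold difference, so that the set (red, median 0.27) can be read against the macrophage markers (median -1.56).

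Genes reported to depend on IkBz in macrophages gave little to set beside the lower Nfkbiz. Of 7, 6 were within the olfactory range on both arrays, among them Il6, Csf2 and Lcn2. Il12b, the IL-12 and IL-23 subunit, was the measurable one, with 720 with IL-27, against 877 with vehicle. Its difference was -0.29, or 0.04 with the trend removed. The list's median was 0.10 and turned to -0.07 after quantile normalization.

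Inhibitors outside the NF-kB family did not pass the size rule in any of 12 cases as deposited (Zfp36 did after median centring, at -1.03), with a median of -0.16, or 0.16 with the trend removed. Zfp36, whose product marks cytokine messages for decay, had 2639 with IL-27, against 5030 with vehicle, 1.91-fold lower, and Irak3, a brake on Toll-like receptor signalling, had 181 with IL-27, against 298 with vehicle. Peli1, a ubiquitin ligase, differed by -0.63 and Tollip, an adaptor that restrains IL-1 receptor signalling, by 0.30.

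Markers of DCs and of other cell types were read beside these values. The size rule put 11 of 16 measured macrophage and monocyte markers lower and 0 higher, and 11 were lower with the trend removed. Of all genes over the level minimum 13.2% were lower, or 6.7% with the trend removed, with a median of -0.34. The macrophage and monocyte markers had a median of -1.56, or -1.29 with the trend removed. Their summed intensities were 19550 with IL-27, against 41703 with vehicle, where all genes summed to 4.39e+06 with IL-27, against 5.40e+06 with vehicle. Cd163 was at least 3.59-fold and Slc40a1 4.12-fold lower. On the IL-27 array 13 of the 16 macrophage and monocyte markers were above the olfactory limit, against all 16 on the vehicle array. Each array has its own limit, and over all 19935 genes 7574 were above it with IL-27, against 11559 with vehicle. Conventional DC markers were also lower in 7 of 16 cases, or in 5 with the trend removed, with Cd209a 6.61-fold and Kmo 4.92-fold lower. Their median was -0.88, or -0.69 with the trend removed, and their summed intensities were 26666 with IL-27, against 38902 with vehicle. Of the 16 DC markers, all over the level minimum, 14 were below 0 and 2 above (12.5%). Over all genes 53.4% were above 0, but that share takes in genes under the level minimum and is not matched in level. Among the 11140 genes over it, a difference of -0.21 (Nfkbia) already ranked 4625 from the highest. Of 5 DC markers named after their values were seen, Flt3 was 2.11-fold lower (-0.83 with the trend removed, short of the size rule) and Itgax 1.84-fold lower. H2-Aa differed by 0.12 and Zbtb46 and H2-Ab1 by -0.02 each. These 5 were above the limit on both arrays. Fewer cells of a type and less RNA per cell cannot be told apart here, and the part of either marker list in the differences of Nfkbiz, Ptgs2 and the sensors was not tested. The summed intensities of the 9 genes of the set were 13550 with IL-27, against 12050 with vehicle.

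Plasmacytoid DC markers had a median of -0.59, or -0.22 with the trend removed, and none of the 6 measured passed the size rule. Of these, 4 were below 0, with Ccr9 at -0.88 and Tcf4 at -0.83 (-0.46 and -0.39 with the trend removed). The 2 above 0 were Cox6a2 at 0.52 and Ly6d at 0.26. The median was -0.05 for the 7 B cell markers measured. By the size rule 2 were lower and 1 higher, against 13.2% and 1.52% of all genes over the level minimum. Cd22 was at least 3.05-fold lower, and Ms4a1 was 2.15-fold lower (-0.67 with the trend removed, short of the size rule). Ighm was 2.39-fold higher by its brightest probe set (log2 difference 0.74 by its dimmest). T cell markers had a median of 0.10 over the 7 measured, which turned to -0.04 after quantile normalization. It was 0.48 over the 5 that reached the level minimum and -0.30 over the 3 above the limit on both arrays. Il7r was 3.50-fold higher and Cd4 was 2.82-fold lower. Cd3e and Lat differed by 0.48 and 0.68, with IL-27 values under the olfactory limit. Cd3d and Cd3g were within the olfactory range on both arrays. NK cell markers had a median of 0.15 over all 8, of -0.40 over the 4 that reached the level minimum, and of -1.07 over the 2 above the limit on both arrays. Klrk1 was 2.12-fold lower, Klrd1 was 2.06-fold lower, both short of the size rule with the trend removed (-0.74 and -0.61), and Ncr1 and Klrb1c were within the olfactory range on both arrays. Neutrophil markers had a median of 0.32, with 6 of 8 within that range on both arrays and S100a9 at 0.78.

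Of the alternatives tried, 4 (quantile normalization, median centring, trend removal and an offset of 16) altered the differences of the 9 genes, and none of the 9 changed sign under them. The other 5 left these differences as they were, being choices of probe set (each of the 9 has 1), of level filter or of size rule. Tnip3 ranged from 2.66 with an offset of 16 added to the intensities to 3.24 with the level trend removed. Nfkbiz ranged from -1.22 after median centring to -0.77. After quantile normalization 1 gene of the set was higher (2.12% of genes over the level minimum) and 0 were lower (8.17%). After median centring 1 was higher (1.19%) and 1 lower (16.8%), and with a 1.5-fold rule 1 was higher (5.86%) and 1 lower (33.7%). Tnfaip3 stayed between -0.64 and -0.29, Nfkbia between -0.31 and -0.07, and Tnip1 between 0.04 and 0.57.

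**Figure D5:**
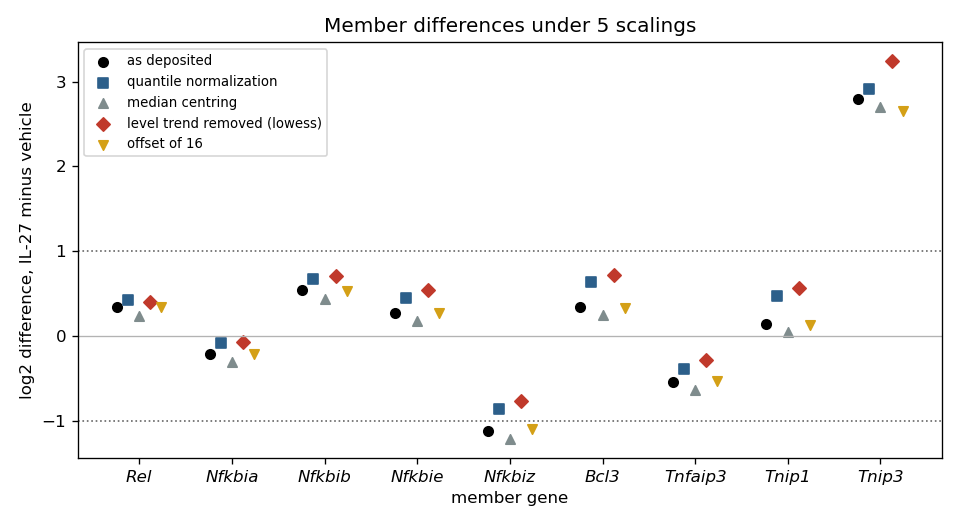
Log2 difference (IL-27 minus vehicle) of 9 genes of the set as deposited and under 4 other scalings, with dotted lines at a 2-fold difference. Tnip3 stays at 2.66 or above throughout, Nfkbiz lies inside the lower line under quantile normalization and trend removal, and no gene changes side of 0.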

How the data were processed

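The deposited table held 1 linear intensity per probe set (28815) and array, as the authors made it. How background, summarization and scaling between arrays were handled is not given in the sources used here, and the genome build was mm8 per the submitters' processing notes. The median intensity was 98.9 on the IL-27 array and 92.4 on the vehicle array, and the upper quartile 215 on the IL-27 array and 267 on the vehicle array, so the arrays did not share a distribution. Log2 was taken with no pseudocount.

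GEO's platform annotation gave 1 gene to 21780 probe sets, several to 1605 (not named) and none to 5430. Where a gene had several probe sets, the one of highest mean log2 level was used. The set, the 14 other lists and the olfactory limit were chosen with earlier results of these data known. Outside the set, up to 4 genes of largest absolute difference were named per pathway list and 2 per marker list, over the level minimum. Rela, Relb, Nfkb2, Nfkbid, Tnip2 and Cyld were named whatever their values. The others were named after their values were seen. Among them were Itgax, Flt3, H2-Aa, H2-Ab1, Zbtb46, Cox6a2, Ly6d, Ms4a1, Cd3e, Lat, Cd3d, Cd3g, Ncr1, Klrb1c, Il6, Csf2 and Lcn2. A fold is given as "at least" when the dimmer value lay under its olfactory limit and was replaced by it. Alternatives were quantile normalization, median centring, lowess removal of the level trend (span 0.3), an offset of 16, the mean or the dimmest probe set of a gene, 2 level filters and a 1.5-fold rule. Calculations used Python 3.11.15 and statsmodels 0.14.6 and were tested on simulated data. Only 2 arrays were read, and their number limits the precision.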

Additional observations from a re-analysis of the deposited data

How the results depend on the processing

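Tnip3 was the 1 higher gene of the set under all 9 alternatives, of which only 4 altered the differences of the set. The number of lower genes was 0 after quantile normalization (Nfkbiz -0.86) and with the level trend removed (Nfkbiz -0.77), and 1 under the other 7. Trend removal moved the median of the set to 0.54, of other subunits and inhibitors to 0.25, of ubiquitin editing to 0.27, of kinases and adaptors to 0.14, of other feedback inhibitors to 0.16, of macrophage markers to -1.29 and of plasmacytoid DC markers to -0.22. Quantile normalization moved kinases and adaptors to 0.086, other feedback inhibitors to 0.13 and plasmacytoid DC markers to -0.32. Keeping only genes above the olfactory limit on both arrays moved IkBz-dependent genes to -0.29, T cell markers to -0.30, NK cell markers to -1.07 and neutrophil markers to 0.78, since fewer genes were left. Only 1 gene was left for IkBz-dependent genes (Il12b) and 1 for neutrophil markers (S100a9), with 2 for NK and 3 for T cell markers. A list median is said to have moved when it shifted by over 0.25, a limit set by hand because no replicate spread exists. The other 137 values of lists and counts were within that limit or, for counts, within 1.5 times. As deposited, 169 of all genes were higher and 1468 lower (10.3% higher), against 235 and 907 (20.6%) after quantile normalization, 264 and 744 (26.2%) with the trend removed, and 653 and 3753 by the 1.5-fold rule. The median of genes over the level minimum was -0.34 as deposited and -0.10 with the trend removed. No paired analysis was possible because each group has 1 array.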

Other observations

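The genes whose levels on both arrays were most like those of Tnip3, by Euclidean distance over the 2 log2 values, were Slc7a11, the cystine transporter (distance 0.28), Srxn1, sulfiredoxin (0.39), and Emp1, an epithelial membrane protein (0.46). Slc7a11 had 969 with IL-27, against 156 with vehicle. For Nfkbiz the nearest were Adap2 (0.05), Mlec (0.06) and Preb (0.07), and Preb had 462 with IL-27, against 979 with vehicle. The likeness rests on 2 arrays.

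Of 731 genes over the level minimum whose promoter window held TTCNNNGAA, 2.46% were higher and 13.5% lower by the 2-fold rule, with a median difference of -0.40. Among the 8204 without it, 1.33% were higher and 13.3% lower, with a median of -0.36. These are shares over genes of 2 arrays and were not tested.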
